A study of Mus musculus with 162 samples.

Results

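The 33 genes described here are interferon-stimulated genes, chosen by their gene symbols with earlier results of these data known. Each was found once among the 53686 genes of the count table. The study took 9 organs from each of 18 male C57BL/6J mice, 8 to 9 weeks old and housed in groups, and sequenced their messenger RNA to follow a short fast across the body. Control mice (0 h) were fed ad libitum, and the other mice had no food for 2, 8, 12, 18 or 22 h before they were killed, with water at all times. Every fast ended at the same time of day, so its start fell at a different hour in each group. The organs were the olfactory bulb (OB), the telencephalon and diencephalon (BRN), the cerebellum (CBL), the brainstem (BST), the stomach (STM), the liver (LIV), interscapular brown fat (iBAT), perigonadal white fat (pgWAT) and posterior subcutaneous white fat (psWAT). The study describes no infection or drug treatment of the mice, and it reports no test for infection.

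Each organ and time had 3 mice. The 5 libraries that the study removed were left out, which leaves 2 libraries for BRN at 8 h and 18 h, STM at 12 h, iBAT at 22 h and psWAT at 22 h. The retained libraries held 3045845 to 27801717 counts, with a median of 8735554. RNA of the white fats was extracted with a lipid tissue kit and that of the other organs with a standard kit, so organ and kit cannot be told apart in comparisons of white fat with other organs. CPM are counts scaled to library size. Levels between genes or organs are given as RPKM, which is CPM per kilobase of exon with library sizes scaled by TMM over all organs together. Levels of 1 gene within an organ are given as normalized CPM, that is CPM with library sizes scaled by TMM within that organ.

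Interferons are secreted proteins that cells release when sensors detect viral or misplaced nucleic acids. Their receptors activate Janus kinases, and a complex with the STAT2 and IRF9 proteins then binds interferon response elements in promoters and raises many antiviral genes at once. Low, constant signalling keeps these genes partly active in uninfected animals.

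The libraries were first compared with the organs on their labels. All but 2 of the retained libraries lay nearest the mean of the labelled organ by their profile over all genes. These 2 were psWAT 8 h replicate 1 (r = 0.932 with psWAT and 0.954 with pgWAT) and psWAT 12 h replicate 3 (r = 0.841 with psWAT and 0.909 with CBL), where r is the correlation across genes, which are not independent replicates. The summed level of 5 cerebellum markers was 3158 normalized CPM in psWAT 12 h replicate 3, against a median of 0.636 over the psWAT libraries. Another 4 libraries had an r under 0.94 with their own organ: BRN 18 h replicate 2 (0.931), iBAT 22 h replicate 2 (0.926), pgWAT 18 h replicate 3 (0.927) and pgWAT 22 h replicate 2 (0.898). Some of the counts below are also given without these 6 libraries.

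The psWAT libraries carried lymphocyte markers at high levels. All 6 of the 6 T cell markers and all 5 of the 5 B cell markers passed the filter on low counts in psWAT, and none of them was at 0 in every library. The summed T cell markers, of which Lck was the most abundant at a mean of 289, were 567, 998 and 1033 at 0 h, 1408, 1033 and 1117 at 2 h, 227, 845 and 555 at 8 h, 1385, 1515 and 417 at 12 h, 1030.5, 809 and 819 at 18 h, 1544 and 998 at 22 h (normalized CPM). The summed B cell markers were 960.0, 1577 and 3044 at 0 h, 2429.7, 1780.1 and 2560.2 at 2 h, 116.9, 2017 and 842 at 8 h, 2200.2, 2228 and 172 at 12 h, 2628, 1606 and 707 at 18 h, 2935 and 598 at 22 h on the same scale. In pgWAT these sums were 6.07 to 11.6 for T cells and 6.25 to 21.2 for B cells. The summed white fat markers of psWAT, led by Fabp4, were 30903, 23810.0 and 1756 at 0 h, 2646, 771 and 1176 at 2 h, 38532, 12819 and 25391 at 8 h, 3925, 1517 and 5369 at 12 h, 4396, 9907 and 16525 at 18 h, 542 and 19128 at 22 h. The psWAT libraries highest in lymphocyte markers were among the lowest in fat markers. In such bulk samples, fewer cells of a type and less RNA per cell cannot be told apart.

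Where the interferon-stimulated genes were high was asked first, from the levels per exon length over all time points (mean ± SD over 16 to 18 libraries per organ). The median member stood at 0.542 RPKM in BRN, 0.738 in CBL, 0.898 in BST and 1.03 in OB, and at 3.12 in STM, 3.72 in pgWAT, 3.73 in iBAT, 3.91 in LIV and 9.69 in psWAT. Of the 33 members, 16 had their highest mean in psWAT, 7 in LIV, 4 in pgWAT, 2 in STM, 2 in iBAT, 1 in OB and 1 in BST. The lowest mean was in CBL for 16 members, in BRN for 14, in LIV for 2 and in BST for 1.

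**Figure D1:**
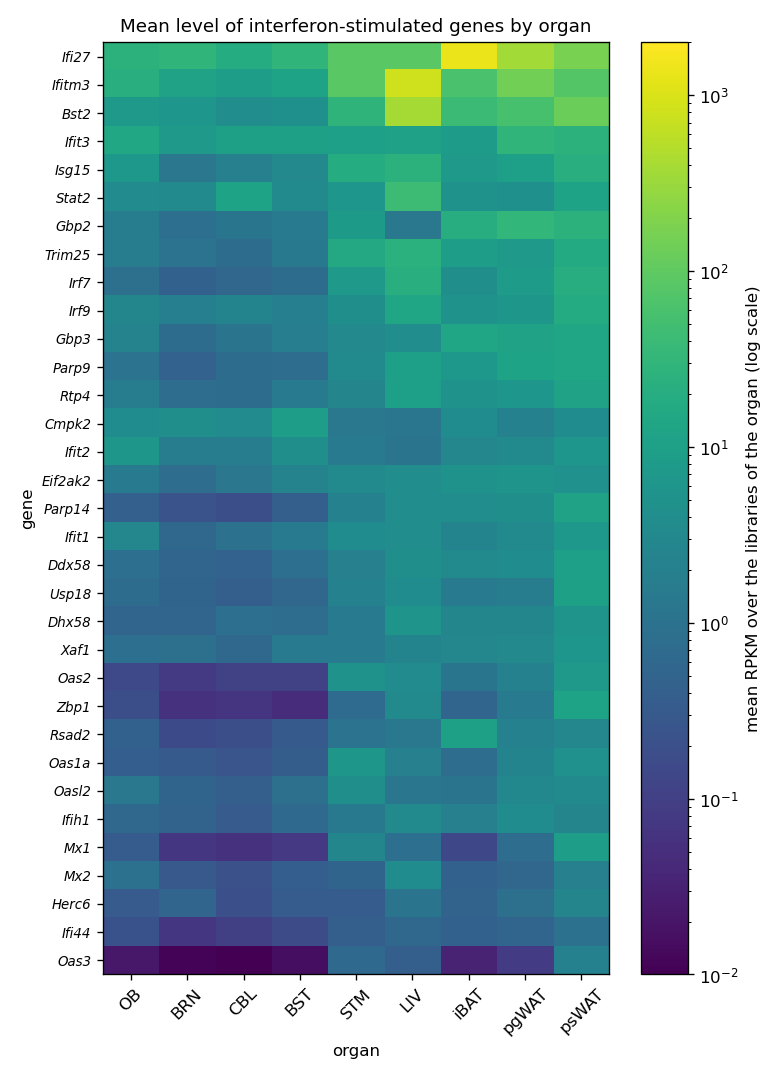
Mean level of each of the 33 genes (vertical axis, ordered by their mean) in each organ (horizontal axis), as RPKM on a logarithmic colour scale; values under 0.01 are drawn at 0.01. The columns of OB, BRN, CBL and BST are darker than those of STM, LIV and the fat depots for most genes, with Cmpk2 and Ifit2 as exceptions, which were lowest in LIV.

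The factors that carry the interferon signal differed in their place. Stat2, the STAT protein of the interferon complex, averaged 3.54 in OB, 3.38 in BRN, 11.7 in CBL, 3.41 in BST, 5.98 in STM, 43.7 in LIV, 5.02 in iBAT, 4.66 in pgWAT and 12.0 in psWAT (RPKM). Liver held the highest Stat2 level, and among the brain regions CBL stood out from the other regions. Irf9, its DNA-binding partner, ranged from 1.90 ± 0.707 RPKM in BRN to 18.6 ± 7.49 RPKM in psWAT. Irf7, which drives the production of more interferon, averaged 0.912 in OB, 0.433 in BRN, 0.559 in CBL, 0.755 in BST, 7.31 in STM, 21.001 in LIV, 4.39 in iBAT, 8.25 in pgWAT and 20.4 in psWAT (RPKM). Its SD was 4.19 RPKM in LIV and 8.45 RPKM in psWAT, so that these highest organs did not differ beyond their spread. Usp18, a protease that removes ISG15 from proteins and damps the receptor, ranged from 0.396 ± 0.178 RPKM in CBL to 10.2 ± 4.95 RPKM in psWAT.

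Sensors of foreign RNA and DNA followed. Ddx58 encodes RIG-I, and its level ran from 0.472 ± 0.121 RPKM in CBL to 9.69 ± 4.17 RPKM in psWAT. For Ifih1, which encodes MDA5, the means lay between 0.335 ± 0.0735 RPKM in CBL and 3.79 ± 0.765 RPKM in pgWAT. Dhx58, their regulator LGP2, spanned 0.529 ± 0.310 RPKM in BRN and 5.61 ± 2.61 RPKM in psWAT. All of them were lowest in BRN or CBL. Trim25, a ubiquitin ligase that acts on RIG-I, reached 24.3 ± 2.70 RPKM in LIV against 0.738 ± 0.134 in CBL. Zbp1, a sensor of Z-form nucleic acid that can start cell death, was at 12.0 ± 6.66 RPKM in psWAT, 3.35 ± 1.05 in LIV and 0.0481 ± 0.0368 in BST. Eif2ak2, the kinase PKR that halts translation on double-stranded RNA, varied less, from 0.770 ± 0.325 RPKM in BRN to 5.44 ± 0.860 RPKM in pgWAT.

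The oligoadenylate synthetases make the messenger that activates RNase L. Oas1a was highest in STM at 6.51 ± 3.69 RPKM and lowest in CBL at 0.247 ± 0.140. Oas2 averaged 0.149 in OB, 0.0790 in BRN, 0.105 in CBL, 0.107 in BST, 5.01 in STM, 3.69 in LIV, 1.16 in iBAT, 2.104 in pgWAT and 7.17 in psWAT (RPKM). Oas3 reached 2.16 ± 1.44 RPKM in psWAT, 0.640 ± 0.693 in STM and 0.411 ± 0.181 in LIV. In each of the other 6 organs it failed the filter on low counts, and 13 of 18 CBL libraries and 10 of 16 BRN libraries held no Oas3 count at all. For a count of 0, the upper limit of 3 counts is 0.462 CPM in the shallowest of these CBL libraries and 0.248 to 0.985 CPM in BRN, counting error only. Oasl2, a synthetase-like protein, ranged from 0.403 ± 0.133 RPKM in CBL to 4.44 ± 3.69 RPKM in STM.

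Outside the brain regions, Ifitm3, Bst2 and Ifi27 were the most abundant members per length. Ifitm3, which stops viral fusion in endosomes, averaged 21.3 in OB, 11.3 in BRN, 9.03 in CBL, 11.9 in BST, 89.4 in STM, 815 in LIV, 60.7 in iBAT, 152.2 in pgWAT and 77.8 in psWAT (RPKM). Bst2, the tether that holds budding viruses to the cell, averaged 7.12 in OB, 6.02 in BRN, 3.96 in CBL, 4.55 in BST, 27.7 in STM, 391 in LIV, 40.2 in iBAT, 57.5 in pgWAT and 130.8 in psWAT (RPKM). Ifi27 had the highest mean of any member in any organ, at 1369 ± 382 RPKM in iBAT, followed by 377 ± 146.4 in pgWAT and 173 ± 129.9 in psWAT. The brain regions held 18.8 to 29.8 RPKM of Ifi27. Brown fat thus had 72.8 times the Ifi27 level of CBL on this scale.

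Isg15, the ubiquitin-like modifier, ranged from 1.28 ± 1.08 RPKM in BRN to 25.9 ± 5.06 RPKM in LIV, with 21.2 ± 11.7 in psWAT and 18.98 ± 17.7 in STM. The SD in STM was nearly as large as the mean. Herc6, the ligase that attaches ISG15 in mice, stayed between 0.196 ± 0.0433 RPKM in CBL and 2.60 ± 1.23 RPKM in psWAT. Among the genes whose proteins bind foreign RNA at the ribosome, Ifit1 ranged from 0.620 ± 0.557 RPKM in BRN to 6.80 ± 3.45 RPKM in psWAT. Ifit3 ranged from 7.47 ± 2.65 RPKM in BRN to 29.04 ± 8.06 RPKM in pgWAT, and its near-identical copy Ifit3b means that uniquely mapped reads undercount it. Ifit2 was highest in OB, at 6.53 ± 1.02 RPKM, and lowest in LIV, at 1.07 ± 0.270 RPKM.

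Cmpk2, a nucleotide kinase of mitochondria, was likewise highest in a brain region, at 8.89 ± 0.509 RPKM in BST, and lowest in LIV at 1.196 ± 0.308 RPKM. Its neighbour on chromosome 12, Rsad2 (viperin, which makes a chain-terminating nucleotide), had another order, with 10.1 ± 2.66 RPKM in iBAT and 0.159 ± 0.156 in BRN. The genes lie at chr12:26442746-26456452 and chr12:26469204-26479837 in the GRCm38 annotation. The dynamin-like GTPases were low outside few organs: Mx1 reached 9.31 ± 6.501 RPKM in psWAT and 2.70 ± 2.17 in STM, and Mx2 reached 3.87 ± 1.06 in LIV. In C57BL/6 mice the Mx1 protein is not functional, and the annotation lists Mx2 as a polymorphic pseudogene. The guanylate-binding GTPases, known targets of interferon gamma, were fat genes here: Gbp2 stood at 31.6 ± 8.08 RPKM in pgWAT, 25.9 ± 8.54 in psWAT and 20.5 ± 3.24 in iBAT, against 1.33 ± 0.654 in LIV. Gbp3 ranged from 0.749 ± 0.319 RPKM in BRN to 13.7 ± 4.22 RPKM in psWAT.

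The ADP-ribosyltransferase family members Parp9 and Parp14 lie near each other on chromosome 16, at chr16:35938470-35972605 and chr16:35832874-35871544. Parp9 ranged from 0.459 ± 0.218 RPKM in BRN to 13.2 ± 4.06 RPKM in psWAT. Parp14 ranged from 0.185 ± 0.0492 RPKM in CBL to 11.2 ± 5.33 RPKM in psWAT. Both were lowest in brain regions and highest in psWAT. Rtp4 ran from 0.745 ± 0.261 RPKM in CBL to 11.5 ± 4.15 RPKM in psWAT. Xaf1, which binds the apoptosis inhibitor XIAP, lay between 0.600 ± 0.103 RPKM in CBL and 6.22 ± 2.57 RPKM in psWAT. The last member, Ifi44, was low in all organs, from 0.0686 ± 0.134 RPKM in BRN to 1.02 ± 0.498 RPKM in psWAT.

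Each organ was then tested against the mean of the other 8 over all 21597 genes that passed the filter, with edgeR's quasi-likelihood test, each mouse as a block and Benjamini-Hochberg adjustment. A gene was called at an adjusted p under 0.05 with an absolute log2 fold change over 1. In psWAT, 29 of the 33 members were called higher, where 23.9% of all genes were, and 0 were called lower, where 14.8% were. With the fold threshold kept, the count of 0 was 0 at an unadjusted p under 0.05 and 0 with limma-voom. The median log2 fold change of the members in psWAT was 2.11, against 0.00 over all genes. Zbp1 (log2 fold change 5.19 ± 0.12, SE) and Mx1 (4.88 ± 0.15) were among the 29. Because lymphocyte markers were high in every psWAT library, their part in this difference was not tested.

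LIV had 22 members called higher against 21.5% of all genes and 3 called lower (Cmpk2, Gbp2 and Ifit2) against 30.2%, and the members' median log2 fold change was 1.63. Bst2 in LIV stood at a log2 fold change of 4.57 ± 0.09 (SE) and Ifitm3 at 4.61 ± 0.07. In pgWAT, 20 members were called higher, where 22.1% of all genes were, and 0 lower, where 13.5% were; with the fold threshold kept, this 0 was 0 at an unadjusted p under 0.05 and 0 with limma-voom. Stat2 (-0.65) and Cmpk2 (-0.60) were lower in pgWAT by less than the threshold, at an unadjusted p of 2.72e-10 and 2.34e-08. iBAT had 9 members higher (18.9% of all genes) and 2 lower, Mx1 and Oas3 (20.8%). Ifi27 was the member farthest above the other organs in iBAT, at a log2 fold change of 4.49 ± 0.09 (SE). STM had 8 members higher (20.6%), among them Oas1a, Oas2, Oas3 and Oasl2, and 1 lower, Cmpk2 (14.9%).

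The brain regions were on the other side. In BRN, 29 members were called lower, where 17.7% of all genes were, and 0 higher, where 23.2% were. In CBL, 27 were called lower (19.4%) and 0 higher (21.1%). With the fold threshold kept, these counts of 0 by edgeR were 0 in BRN and 0 in CBL at an unadjusted p under 0.05, and 0 and 0 with limma-voom. Higher by less than the threshold were Cmpk2 in BRN (0.53, unadjusted p = 2.31e-07) and Stat2 (0.87, 2.11e-19) and Cmpk2 (0.29, 0.00228) in CBL. BST had 23 members lower (17.0%) and 1 higher, Cmpk2 (24.9%), at a log2 fold change of 1.72 ± 0.08 (SE). In OB, 18 members were lower (16.9%) and 1 was higher, Ifit2 (22.7%), at 1.46 ± 0.10 (SE). The members' medians were -2.08 in BRN, -2.10 in CBL, -1.33 in BST and -1.10 in OB.

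Without the 6 libraries that stood apart, 1 member was called lower in iBAT, 9 higher in iBAT, 28 lower in BRN, 28 lower in CBL, 22 lower in BST, 21 higher in pgWAT and 29 higher in psWAT. Of the 33 members, 27 passed the filter in all 9 organs. Oas3 failed it in 6 organs, Mx1 in BRN, CBL, BST and iBAT, Oas2 and Zbp1 in BRN, CBL and BST, Ifi44 in BRN and CBL, and Oas1a in CBL. These members were not tested within the organs named, and the filter leaves the counts below without them. The comparisons of organs above do include them, in the organ named and in the mean of the others, where their fold changes rest on few counts: 5 of the 29 lower in BRN, 6 of the 27 in CBL, 4 of the 23 in BST, 1 of the 18 in OB and both lower in iBAT are such members.

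Whether fasting moved these genes was asked by comparing the libraries of 18 h and 22 h together with those of 0 h in each organ, the average of both late times against the fed mice, with edgeR's quasi-likelihood test and Benjamini-Hochberg adjustment over all genes that passed the filter on low counts in the organ. A gene was called at an adjusted p under 0.05. In the liver, 2 of the 33 members rose, Irf7 and Zbp1, where 10.6% of all genes were called. Irf7 in LIV stood at 44.9, 44.3 and 36.7 at 0 h, 53.7, 51.05 and 51.1 at 2 h, 40.8, 40.3 and 41.2 at 8 h, 43.4, 57.04 and 36.5 at 12 h, 57.4, 57.4 and 49.6 at 18 h, 62.7, 76.7 and 45.7 at 22 h (normalized CPM). All 6 late libraries lay above the 3 of the fed mice, but those of 2 h did so as well and those of 8 h did not, so the level did not climb steadily with the length of the fast. Its log2 fold change was 0.47 ± 0.14 (SE; adjusted p = 0.0403, higher in 6 of 6 late libraries than in every fed one). Zbp1 in LIV stood at 4.88, 4.82 and 6.07 at 0 h, 8.56, 11.7 and 6.75 at 2 h, 4.29, 4.74 and 4.76 at 8 h, 6.53, 9.14 and 7.74 at 12 h, 8.57, 9.90 and 9.26 at 18 h, 10.2, 9.83 and 5.11 at 22 h. Here too 2 h and the late times were high and 8 h was low, and 22 h replicate 3 fell within the fed range. The log2 fold change of Zbp1 was 0.74 ± 0.23 (adjusted p = 0.0410, higher in 5 of 6 late libraries). The members' median log2 fold change in LIV was 0.08, against 0.01 over all genes tested there. Genes of the mitochondrial genome took 9.37, 10.2 and 7.28% of the LIV counts at 0 h. Their share was 6.43, 4.24 and 8.82% at 18 h and 5.68, 6.74 and 4.72% at 22 h, and its part in the calls was not tested.

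Both calls in LIV were lost in other settings. The fed liver libraries were all sequenced on lane 1 and all late ones on lane 2. Only 8 h was divided between the lanes, with replicate 3 alone on lane 2. With lane as a covariate the adjusted p was 0.487 for Irf7 (log2 fold change 0.45) and 0.518 for Zbp1 (0.67). The lane term rests on the 8 h group alone, so this setting cannot tell fasting from lane. The call of Irf7 was also lost without any 1 of 7 of the 9 libraries, with an adjusted p of 0.0797 without 0 h replicate 1, 0.0934 without 0 h replicate 2, 0.163 without 0 h replicate 3, 0.0578 without 18 h replicate 1, 0.0586 without 18 h replicate 2, 0.0588 without 22 h replicate 1 and 0.103 without 22 h replicate 2. For Zbp1 it was 0.140 without 0 h replicate 1, 0.154 without 0 h replicate 2, 0.0607 without 0 h replicate 3, 0.0571 without 18 h replicate 2, 0.0568 without 18 h replicate 3, 0.0784 without 22 h replicate 1 and 0.0890 without 22 h replicate 2. With 1 library left out in turn, the log2 fold change stayed between 0.37 and 0.56 for Irf7 and between 0.66 and 0.87 for Zbp1.

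Brown fat had calls in the opposite direction. Parp14 and Ddx58 fell in iBAT, 2 of the 31 members tested, where 20.9% of all genes were called. Parp14, an ADP-ribosyltransferase, stood at 29.9, 46.5 and 28.05 at 0 h, 28.3, 32.7 and 33.8 at 2 h, 26.9, 32.3 and 33.7 at 8 h, 17.5, 33.1 and 20.3 at 12 h, 25.6, 32.9 and 22.4 at 18 h, 7.33 and 7.80 at 22 h (normalized CPM). Only the libraries of 22 h were far below the rest, and those of 18 h overlapped the fed range. The log2 fold change of Parp14 was -1.28 ± 0.23 (SE; adjusted p = 0.00246, lower in 4 of 5 late libraries than in every fed one). Ddx58, the RNA sensor RIG-I, stood at 20.2, 26.5 and 16.5 at 0 h, 23.1, 15.9 and 20.9 at 2 h, 19.6, 21.96 and 21.5 at 8 h, 12.2, 23.9 and 10.5 at 12 h, 20.8, 15.7 and 18.3 at 18 h, 6.38 and 7.24 at 22 h. Again the libraries of 22 h were the lowest of all, followed by 2 of 12 h. Its log2 fold change was -0.91 ± 0.25 (adjusted p = 0.0182, lower in 3 of 5 late libraries). The members' median in iBAT was -0.10, against -0.07 over all genes tested there.

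The iBAT calls rest on the 22 h libraries, which stand apart in other ways. Without both of them 0 members were called by edgeR (2 at an unadjusted p under 0.05; this setting was not run with DESeq2), with log2 fold changes of -0.38 for Parp14 (adjusted p = 0.629) and -0.22 for Ddx58 (0.839). With 22 h alone against 0 h, 9 members were called: Bst2, Ifi27, Ifitm3, Irf7, Ddx58, Ifi44, Parp9, Parp14 and Rsad2. How many of all iBAT genes were called in this setting is not given here, so this count is not set against it. The genes of the mitochondrial genome took 5.47 and 11.8% of the counts at 22 h, against 33.1, 36.2 and 19.5% at 0 h and 23.995, 24.3 and 20.2% at 18 h. The summed white fat markers, led by Fabp4, were 13434, 9960.4 and 12803 at 0 h, 10097, 9979.7 and 11004 at 2 h, 10834, 9236 and 9357 at 8 h, 15317, 10730.0 and 15076 at 12 h, 12820.0, 14705 and 13899 at 18 h, 27869 and 22448 at 22 h in iBAT (normalized CPM). The summed markers of endothelium, all 5 of which were kept and led by Cdh5, were 704, 952 and 473 at 0 h, 494, 536 and 485 at 2 h, 499, 672 and 657 at 8 h, 389, 523 and 254 at 12 h, 479.6, 464 and 425 at 18 h, 193.2 and 257 at 22 h. The 22 h libraries had the lowest mitochondrial shares of these groups and the highest fat marker sums. Apart from 12 h replicate 3, they also had the lowest endothelium sums. They ran on lanes 1 and 3, which held no other retained iBAT library, so 22 h and lane cannot be told apart in iBAT. The part of these differences in the calls was not tested.

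Single libraries also moved the iBAT count. Without 22 h replicate 2, which holds 3156101 counts and a T cell marker sum of 25.2 normalized CPM, Ddx58 was no longer called (adjusted p = 0.0559). Without 0 h replicate 2 the adjusted p of Ddx58 was 0.121 and 1 member was called. The count was 4 without 0 h replicate 1 and 7 without 22 h replicate 3, where the members' median turned to 0.14. Leaving out a 22 h library leaves 1 at that time, which is then assumed to vary like the others. Parp14 was called without any 1 of these libraries, with adjusted p values up to 0.0222. DESeq2 called 5 members: Parp14, Ddx58, Ifi27, Ifi44 and Irf7. For these settings, too, the share of all genes called is not given here.

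In BRN, 1 of 28 members tested rose, Ifi27, a small membrane protein, where 11.3% of all genes were called. It stood at 32.0, 29.002 and 36.2 at 0 h, 45.5, 37.3 and 45.9 at 2 h, 62.1 and 52.9 at 8 h, 55.2, 76.8 and 40.9 at 12 h, 52.3 and 46.3 at 18 h, 55.3, 65.9 and 46.5 at 22 h (normalized CPM). The fed libraries were the lowest of all, and all libraries of the later groups lay above them. Its log2 fold change was 0.69 ± 0.20 (SE; adjusted p = 0.0369, higher in 5 of 5 late libraries). The members' median was 0.12, against -0.09 over all genes tested there. The call was lost with lane as a covariate (0.570), with all 18 libraries (0.551), with 18 h alone (0.150), and without 0 h replicate 1 (0.144), 0 h replicate 2 (0.128), 0 h replicate 3 (0.0804), 18 h replicate 2 (0.0921), 22 h replicate 1 (0.0705) and 22 h replicate 2 (0.0844), where 18 h replicate 2 is one of the 6 libraries that stood apart. Without 18 h replicate 3, which leaves 1 library at 18 h, 6 members were called and the median was -0.63. DESeq2 called 2 members, Ifi27 and Bst2. With 1 library left out in turn, the log2 fold change of Ifi27 stayed between 0.63 and 0.79.

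In BRN the macrophage, plasmacytoid dendritic cell and red cell sums were higher in every late library than in every fed one, whereas the sums of microglia alone overlapped. The summed macrophage and microglia markers, all 8 of which were kept and led by C1qb, were 240.4, 270.5 and 288 at 0 h, 357, 321 and 281 at 2 h, 338 and 323 at 8 h, 354, 568 and 352 at 12 h, 454 and 342 at 18 h, 319, 415 and 304 at 22 h (normalized CPM). The 2 markers of microglia alone, Tmem119 ahead, were both kept and summed to 39.7, 46.4 and 49.5 at 0 h, 48.7, 41.4 and 46.6 at 2 h, 39.7 and 33.7 at 8 h, 43.9, 47.7 and 54.6 at 12 h, 54.5 and 41.05 at 18 h, 37.1, 46.2 and 44.9 at 22 h. The 3 plasmacytoid dendritic cell markers, of which 2 were kept and Siglech was the most abundant, summed to 20.8, 22.7 and 24.3 at 0 h, 26.1, 24.99 and 15.0 at 2 h, 28.2 and 17.3 at 8 h, 28.4, 37.3 and 21.03 at 12 h, 59.6 and 31.4 at 18 h, 30.9, 45.2 and 29.7 at 22 h. The red cell markers, all 5 of which were kept and led by Hbb-bs, summed to 45.8, 109.5 and 91.8 at 0 h, 368, 95.6 and 243 at 2 h, 226 and 309 at 8 h, 177, 589 and 114.4 at 12 h, 495 and 329 at 18 h, 229, 211 and 140.3 at 22 h. Genes of the mitochondrial genome took 3.49, 6.82 and 4.31 at 0 h, 7.92, 5.38 and 8.77 at 2 h, 10.1 and 10.9 at 8 h, 7.43, 12.2 and 6.51 at 12 h, 11.8 and 6.82 at 18 h, 9.43, 10.9 and 7.02 at 22 h of the counts (percent). None of the markers in these lists was at 0 in every library, and the part of these differences in the call of Ifi27 was not tested.

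The members' differences in all organs are drawn together. In most organs they lay around or a little above the fed level, and few passed the test.

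**Figure D2:**
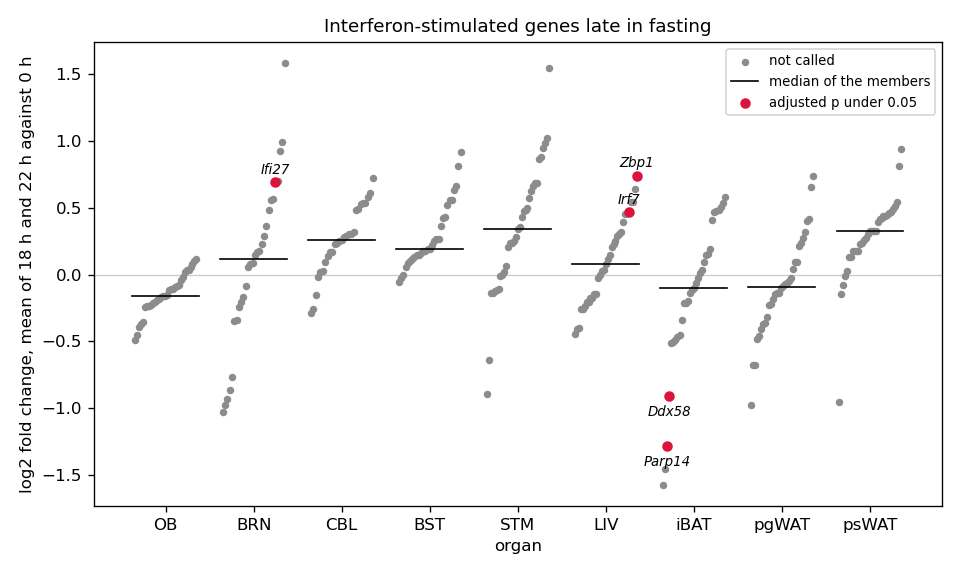
Log2 fold change of 18 h and 22 h against 0 h (vertical axis) of the members tested in each organ (horizontal axis), sorted by value within the organ. Each point is 1 gene, black lines are the medians of the members, and red points with names have an adjusted p under 0.05. The named points are Ifi27 in BRN, Irf7 and Zbp1 in LIV, and Parp14 and Ddx58 in iBAT, and some grey points lie farther from 0 than these.

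The other brain regions had no called member. In CBL 0 of 27 were called by edgeR, where 0.344% of all genes were, with 8 at an unadjusted p under 0.05 and 0 with DESeq2. Of all 15973 genes tested in CBL, 2402 had an unadjusted p under 0.05. The median was 0.26, against -0.01 over all genes tested there. Ifit1 in CBL stood at 1.94, 3.09 and 1.54 at 0 h, 3.81, 3.14 and 3.32 at 2 h, 1.93, 1.56 and 2.94 at 8 h, 3.64, 3.35 and 3.41 at 12 h, 3.75, 5.60 and 5.31 at 18 h, 2.62, 3.19 and 2.36 at 22 h (normalized CPM), with a log2 fold change of 0.72 ± 0.22 (SE; adjusted p = 0.112, above every fed library in 4 of 6). Cmpk2 stood at 18.3, 15.4 and 17.3 at 0 h, 16.7, 20.3 and 20.4 at 2 h, 17.3, 14.5 and 17.9 at 8 h, 20.3, 21.996 and 19.3 at 12 h, 17.5, 20.4 and 19.2 at 18 h, 22.4, 24.2 and 20.7 at 22 h (0.28 ± 0.10, adjusted p = 0.166, above every fed library in 5 of 6). Ifit1 was highest at 18 h and Cmpk2 at 22 h, and each overlapped the fed range at the other late time. The 3 fed CBL libraries held 20396385, 22071004 and 21497914 counts and all others 6487419 to 9487976, so depth and feeding cannot be told apart there.

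BST had 0 of 29 members called by edgeR, where 0.0596% of all genes were, with 6 at an unadjusted p under 0.05. That unadjusted threshold was passed by 1654 of all 16781 genes tested in BST. DESeq2 called 0, after its own filter had left 2 of the members. Rtp4, a chaperone of receptors, stood in BST at 2.47, 2.19 and 3.32 at 0 h, 2.62, 3.57 and 3.79 at 2 h, 2.78, 2.19 and 2.69 at 8 h, 3.15, 3.00 and 2.71 at 12 h, 3.04, 5.47 and 9.73 at 18 h, 4.11, 4.36 and 4.13 at 22 h (normalized CPM; log2 fold change 0.92 ± 0.25, SE; adjusted p = 0.189, above every fed library in 5 of 6). Eif2ak2, the kinase PKR, stood at 11.0, 11.0 and 12.0 at 0 h, 13.8, 11.5 and 13.4 at 2 h, 12.9, 12.1 and 12.1 at 8 h, 12.1, 12.1 and 13.4 at 12 h, 14.2, 14.3 and 21.6 at 18 h, 14.0, 15.7 and 11.9 at 22 h (0.42 ± 0.13; adjusted p = 0.254, above in 5 of 6). For both, 18 h replicate 3 was the highest of all BST libraries. The count was 1 without 18 h replicate 1, when Rtp4 reached an adjusted p of 0.0359, and 1 without 0 h replicate 1. The fed BST libraries held 9604280 to 11208544 counts and the late ones 6998492 to 8537933, so depth and feeding cannot be told apart there either. The median in BST was 0.19, against 0.00 over all genes tested there.

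In OB 0 of 32 members were called, where 1.95% of all genes were, and edgeR gave 0 at an unadjusted p under 0.05 as well. Of all 16739 genes tested in OB, 3814 had such an unadjusted p. DESeq2 called 0 of the 8 that its filter left. Herc6, a ligase for ISG15, stood at 4.57, 4.40 and 3.37 at 0 h, 4.00, 3.72 and 3.32 at 2 h, 3.91, 4.55 and 3.17 at 8 h, 4.14, 5.23 and 4.39 at 12 h, 2.05, 3.72 and 4.22 at 18 h, 2.096, 3.599 and 3.03 at 22 h (normalized CPM; log2 fold change -0.39 ± 0.20, SE; adjusted p = 0.254, under every fed library in 3 of 6). Ifit2, which binds foreign RNA, stood at 35.6, 34.9 and 27.6 at 0 h, 28.8, 34.04 and 25.6 at 2 h, 31.2, 30.6 and 31.9 at 8 h, 27.5, 43.8 and 30.1 at 12 h, 25.3, 28.1 and 29.4 at 18 h, 26.9, 30.3 and 27.8 at 22 h (-0.23 ± 0.12; adjusted p = 0.266, under in 2 of 6). Fed and late libraries overlapped for both genes. All fed OB libraries ran on lane 3 and all late ones on lane 4, and with lane as a covariate the log2 fold change of Herc6 turned to 0.02. Only 8 h had OB libraries on both lanes, with replicate 3 alone on lane 4, so this value cannot tell fasting from lane. The median in OB was -0.16, against -0.01 over all genes tested there, and reached from -0.23 to 0.07 with 1 library left out in turn.

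In STM 0 of 33 members were called by edgeR, where 15.3% of all genes were, with 3 at an unadjusted p under 0.05 and 0 with DESeq2. Of all 16278 genes tested in STM, 5265 had an unadjusted p under 0.05. The median was 0.34, against 0.00 over all genes tested there, and lay between 0.04 and 0.49 with 1 library left out in turn. Herc6 in STM stood at 2.91, 1.48 and 2.07 at 0 h, 1.26, 1.60 and 2.20 at 2 h, 1.70, 2.94 and 2.27 at 8 h, 2.09 and 3.02 at 12 h, 3.99, 4.75 and 3.69 at 18 h, 3.598, 3.53 and 3.84 at 22 h (normalized CPM; log2 fold change 0.86 ± 0.35, SE; adjusted p = 0.0983, above every fed library in 6 of 6). Stat2 stood at 27.6, 27.7 and 14.5 at 0 h, 20.6, 28.1 and 24.5 at 2 h, 21.5, 26.8 and 20.6 at 8 h, 32.8 and 47.95 at 12 h, 35.3, 61.7 and 29.4 at 18 h, 45.1, 25.6 and 29.5 at 22 h (0.69 ± 0.27; adjusted p = 0.0897, above in 5 of 6). Herc6 was high in every late library, whereas the high Stat2 values came from single mice of 12 h, 18 h and 22 h. All fed STM libraries ran on lane 5 and all late ones on lane 6. Genes of the mitochondrial genome took 6.45, 9.57 and 2.83% of the counts at 0 h, 11.8, 15.8 and 11.0% at 18 h and 24.4, 11.0 and 11.5% at 22 h. With lane as a covariate 0 members were called and 0 had an unadjusted p under 0.05 with edgeR, a setting not run with DESeq2. Only at 8 h did STM libraries run on both lanes, with replicate 3 alone on lane 6. The lane term rests on that group, so these counts of 0 cannot tell fasting from lane. The part of the mitochondrial share was not tested. Without 18 h replicate 2, 2 members were called.

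White fat had no called member in either depot. In pgWAT 0 of 32 were called by edgeR, where 0.00609% of all genes were, with 5 at an unadjusted p under 0.05. Of all 16408 genes tested in pgWAT, 3567 had such an unadjusted p. DESeq2 called 1 member, Bst2. Bst2 in pgWAT stood at 40.9, 44.7 and 33.6 at 0 h, 80.98, 44.6 and 57.9 at 2 h, 61.5, 63.7 and 34.7 at 8 h, 56.95, 43.7 and 47.1 at 12 h, 69.8, 54.8 and 65.1 at 18 h, 83.001, 50.5 and 75.3 at 22 h (normalized CPM; log2 fold change 0.74 ± 0.23, SE; adjusted p = 0.124, and 0.0383 with DESeq2), above every fed library in 6 of 6. Cmpk2 stood at 11.8, 13.3 and 13.5 at 0 h, 5.94, 9.44 and 14.1 at 2 h, 9.02, 9.85 and 8.45 at 8 h, 12.7, 6.48 and 9.85 at 12 h, 10.2, 7.83 and 5.12 at 18 h, 8.50, 8.26 and 8.22 at 22 h (-0.68 ± 0.27; adjusted p = 0.173), under every fed library in 6 of 6. The fed and late groups did not overlap for either gene, but libraries of 2 h reached the late range of both. The fed pgWAT libraries held 10442459 to 16818926 counts on lane 5 and the late ones 5784709 to 9034939 on lane 6. Genes of the mitochondrial genome took 5.02, 4.20 and 5.05% of the pgWAT counts at 0 h. Their share was 5.77, 6.44 and 5.37% at 18 h and 7.00, 5.10 and 6.25% at 22 h, and its part in these values was not tested. Without 18 h replicate 3 and 22 h replicate 2, the pgWAT libraries that stood apart, 0 members were called by edgeR, with 3 at an unadjusted p under 0.05, a setting not run with DESeq2. The median was -0.09, against 0.05 over all genes tested there.

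In psWAT 0 of 33 members were called by edgeR, where 0.00% of all genes were, with 0 at an unadjusted p under 0.05 and 0 with DESeq2. Of all 16717 genes tested in psWAT, 867 had an unadjusted p under 0.05. Ifi27 in psWAT stood at 817, 686 and 135.9 at 0 h, 170.8, 86.4 and 124.2 at 2 h, 785, 378 and 660.1 at 8 h, 168.4, 141.4 and 152.5 at 12 h, 161.1, 216 and 318 at 18 h, 127 and 558 at 22 h (normalized CPM; log2 fold change -0.95 ± 0.53, SE; adjusted p = 0.936, under every fed library in 1 of 5). Ifit1 stood at 14.1, 17.1 and 22.5 at 0 h, 24.9, 16.8 and 26.4 at 2 h, 22.7, 14.4 and 17.6 at 8 h, 11.6, 38.9 and 13.8 at 12 h, 25.9, 16.9 and 40.2 at 18 h, 54.1 and 17.8 at 22 h (0.82 ± 0.46; adjusted p = 0.936, above in 3 of 5). The fed libraries themselves spanned nearly the whole range of Ifi27, and for Ifit1 the groups overlapped. The median was 0.33, against -0.01 over all genes tested there, and ranged from -0.05 to 0.59 with 1 library left out in turn.

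Any difference among the 6 times was tested next in each organ (adjusted p under 0.05). The members named below were picked after their values were seen, since they are those that this test called. In LIV 4 of 33 were called, Ifit1, Ifit3, Usp18 and Zbp1, where 16.0% of all genes were. Ifit1 in LIV stood at 7.20, 5.71 and 2.96 at 0 h, 8.44, 8.01 and 7.34 at 2 h, 4.84, 4.83 and 3.52 at 8 h, 7.56, 6.98 and 6.70 at 12 h, 9.19, 12.4 and 8.78 at 18 h, 4.77, 5.10 and 6.09 at 22 h (normalized CPM; adjusted p = 0.0156). Usp18, which damps the interferon receptor, stood at 9.00, 6.60 and 3.53 at 0 h, 4.58, 8.01 and 5.92 at 2 h, 3.85, 3.31 and 3.81 at 8 h, 6.07, 6.41 and 3.87 at 12 h, 6.92, 9.90 and 12.6 at 18 h, 7.21, 12.0 and 7.62 at 22 h (adjusted p = 0.0288). Ifit3 stood at 13.1, 15.4 and 8.18 at 0 h, 14.0, 14.8 and 15.0 at 2 h, 7.92, 8.77 and 4.00 at 8 h, 10.8, 10.9 and 10.9 at 12 h, 11.2, 16.3 and 15.4 at 18 h, 9.22, 13.6 and 10.0 at 22 h (adjusted p = 0.0389). Together with Zbp1 (adjusted p = 0.0249; values above), these genes were low at 8 h and high at 18 h, with 2 h between or near the high level. Without 0 h replicate 1 the count was 2, and with lane as a covariate it was 2, Ifit1 and Ifit3. DESeq2 called 8.

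In iBAT 6 of 31 members were called in the test of any difference, where 29% of all genes were: Parp14 (adjusted p = 0.00169) and Ddx58 (0.0174), whose values are given above, and Bst2, Ifi27, Irf7 and Isg15. Bst2 in iBAT stood at 27.7, 26.2 and 20.2 at 0 h, 18.1, 19.8 and 15.6 at 2 h, 16.7, 17.8 and 22.9 at 8 h, 21.2, 18.1 and 33.4 at 12 h, 21.6, 28.3 and 21.7 at 18 h, 81.6 and 34.7 at 22 h (normalized CPM; adjusted p = 0.00523). Ifi27 stood at 1379, 1115 and 1220.3 at 0 h, 1228, 1374 and 1212 at 2 h, 1240.0, 1221 and 1260.5 at 8 h, 1706, 1259 and 1864 at 12 h, 1342, 1184 and 1226 at 18 h, 2842 and 1898 at 22 h (0.00710). Irf7 stood at 11.8, 11.6 and 9.65 at 0 h, 9.13, 6.99 and 9.23 at 2 h, 8.75, 8.79 and 8.48 at 8 h, 13.0, 12.0 and 14.2 at 12 h, 11.8, 15.4 and 13.3 at 18 h, 23.6 and 14.9 at 22 h (0.00843). In all of them 22 h replicate 2, the first of the 22 h values, was the highest library. Isg15 stood at 3.78, 3.63 and 4.98 at 0 h, 3.04, 1.66 and 2.14 at 2 h, 2.42, 2.66 and 3.36 at 8 h, 2.97, 1.27 and 3.20 at 12 h, 3.11, 5.60 and 3.73 at 18 h, 9.88 and 6.57 at 22 h (0.0190), with the same library on top and 22 h replicate 3 second. Without 22 h replicate 2 the count was 1, and without 22 h replicate 3 it was 11.

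In CBL 1 of 27 members was called in this test, Ifit1 (adjusted p = 0.0422), where 2.99% of all genes were. Its 18 h libraries were the highest of CBL apart from 1 of 2 h, and its lowest values were at 0 h and 8 h. The count was 0 without any 1 of 0 h replicate 1, 0 h replicate 3, 18 h replicate 2, 22 h replicate 2 and 22 h replicate 3. In OB 1 of 32 was called, Eif2ak2 (adjusted p = 0.04998), where 15.3% of all genes were. Eif2ak2 in OB stood at 11.0, 8.72 and 8.12 at 0 h, 7.29, 11.3 and 8.22 at 2 h, 8.74, 7.60 and 6.59 at 8 h, 10.1, 14.7 and 11.3 at 12 h, 4.91, 7.72 and 8.55 at 18 h, 8.88, 10.7 and 10.1 at 22 h (normalized CPM), with 12 h replicate 2 highest and 18 h replicate 1 lowest, and it was no longer called with lane as a covariate. The OB count was 2 without 0 h replicate 1, and 0 without 0 h replicate 2, 18 h replicate 1, 18 h replicate 2 or any 1 library of 22 h.

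No member was called by edgeR for any difference among the times in the other 5 organs. BRN had 0 of 28 (0.00597% of all genes), with 1 at an unadjusted p under 0.05 and 1 with DESeq2, Ifi27, and 3 were called without 18 h replicate 3. BST had 0 of 29 (0.107%), with 11 unadjusted and 3 with DESeq2, Oasl2, Rtp4 and Stat2. The BST count was 1 without 0 h replicate 1, 2 without 0 h replicate 3 and 4 without 18 h replicate 1. STM had 0 of 33 (6.55%), with 7 unadjusted and 3 with DESeq2, Herc6, Ifit1 and Ifit3, and it had 1 without 0 h replicate 2, 22 h replicate 1 or 22 h replicate 2. In pgWAT 0 of 32 were called (0.00%), with 2 unadjusted and 0 with DESeq2. In psWAT 0 of 33 were (0.00%), with 2 unadjusted and 1 with DESeq2, Ifi27. Over all genes tested, an unadjusted p under 0.05 was reached by 2780 of 16746 in BRN and 1869 of 16781 in BST. It was reached by 3859 of 16278 in STM, 1694 of 16408 in pgWAT and 3193 of 16717 in psWAT.

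Whether the late effect differed between organs was tested directly, as an interaction of organ and time over 21597 genes with each mouse as a block. The effect differed between organs for 2 of the 33 members, Irf9 (adjusted p = 0.00767) and Stat2 (0.0345), where 29.9% of all genes passed. These proteins join in the complex that carries the interferon signal to DNA. The late log2 fold changes of Irf9, from the single organs, were 0.02 in OB, -0.77 in BRN, -0.29 in CBL, 0.18 in BST, 0.43 in STM, 0.25 in LIV, 0.09 in iBAT, 0.24 in pgWAT and 0.42 in psWAT. Those of Stat2 were -0.18 in OB, -0.34 in BRN, -0.26 in CBL, 0.16 in BST, 0.69 in STM, 0.23 in LIV, -0.51 in iBAT, -0.40 in pgWAT and 0.23 in psWAT. For both genes BRN and CBL were below 0 and STM and LIV above it, and neither gene passed the test in any organ alone. Irf9 lay above every fed library in 6 of 6 late LIV libraries and below every fed one in 4 of 5 late BRN libraries. In STM, LIV, OB and pgWAT all fed libraries ran on 1 lane and all late ones on another. The retained 22 h libraries of iBAT ran on lanes that held no other retained iBAT library. In CBL, BST and pgWAT the fed libraries were deeper than every late one, and in BRN the marker sums given above moved as well. The mitochondrial share was higher in every late library than in every fed one in STM and pgWAT, and lower in CBL. It was also lower in LIV apart from 18 h replicate 3, and in OB apart from 22 h replicate 2. The interaction was not fitted with lane, and the part of these measures in it was not tested.

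The interaction of Irf9 and Stat2 depended on the organs taken in. With limma-voom and all organs the adjusted p was 0.0256 for Irf9 and 0.0243 for Stat2, and 4 members passed, 1 without OB and 8 without psWAT. The adjusted p of Irf9 with limma-voom was 0.0563 without OB, 0.407 without BRN, 0.0562 without CBL, 0.0717 without LIV and 0.0827 without iBAT. For Stat2 it was 0.0673 without OB, 0.155 without STM and 0.0510 without iBAT. With the 5 removed libraries put back, Stat2 stood at 0.0508 with edgeR, which left Irf9 alone, and without the 6 libraries that stood apart 4 members passed.

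Since 9 organs came from each mouse, differences between mice of the same time could be tested across organs, with mice as numbered in the labels. Within the groups, 3 of 33 members differed between mice, Oas3, Oas2 and Usp18, where 1.92% of the 21597 genes did. Unadjusted, 14 members had a p under 0.05, and the share of all genes at that threshold was not counted. Ifi44 came next (adjusted p = 0.0869). These numbers are F tests over mice, so the effect is given by the values themselves.

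Oas2 in STM stood at 13.7, 8.88 and 7.82 at 0 h, 2.85, 5.29 and 9.55 at 2 h, 6.21, 11.1 and 16.3 at 8 h, 13.6 and 49.7 at 12 h, 13.3, 92.6 and 11.4 at 18 h, 42.3, 12.8 and 12.5 at 22 h (normalized CPM). In psWAT it stood at 15.2, 13.8 and 70.0 at 0 h, 61.9, 36.9 and 80.1 at 2 h, 15.7, 23.9 and 18.5 at 8 h, 23.9, 73.0 and 15.8 at 12 h, 61.4, 37.5 and 51.2 at 18 h, 78.9 and 13.8 at 22 h. In LIV it was 7.33, 8.63 and 12.7 at 0 h, 9.16, 12.6 and 10.8 at 2 h, 9.12, 8.41 and 7.42 at 8 h, 8.02, 16.2 and 7.74 at 12 h, 12.1, 10.0 and 10.5 at 18 h, 12.4, 12.5 and 8.49 at 22 h. At 12 h the mouse numbered 2 was the highest of its group in each of these organs, and in STM 1 mouse of 18 h and 1 of 22 h stood far above the others of their groups. Oas2 in OB was 1.13, 0.440 and 0.950 at 0 h, 0.941, 0.763 and 0.875 at 2 h, 0.868, 0.782 and 0.380 at 8 h, 0.675, 1.92 and 0.564 at 12 h, 1.12, 0.837 and 0.444 at 18 h, 0.863, 0.554 and 0.172 at 22 h. In pgWAT it was 12.3, 8.96 and 11.6 at 0 h, 7.92, 15.6 and 23.2 at 2 h, 7.95, 9.54 and 11.5 at 8 h, 10.1, 7.68 and 7.61 at 12 h, 10.2, 13.4 and 5.28 at 18 h, 5.96, 4.56 and 8.54 at 22 h. In iBAT it was 2.54, 5.56 and 3.35 at 0 h, 2.03, 4.86 and 5.62 at 2 h, 3.22, 1.79 and 4.81 at 8 h, 1.15, 2.90 and 3.41 at 12 h, 2.86, 3.91 and 3.45 at 18 h, 9.56 and 2.45 at 22 h. The same mouse of 12 h was highest in OB but not in pgWAT or iBAT. In BRN, CBL and BST no library exceeded 1.21 normalized CPM of Oas2. The adjusted p of Oas2 over mice was 0.00535.

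**Figure D3:**
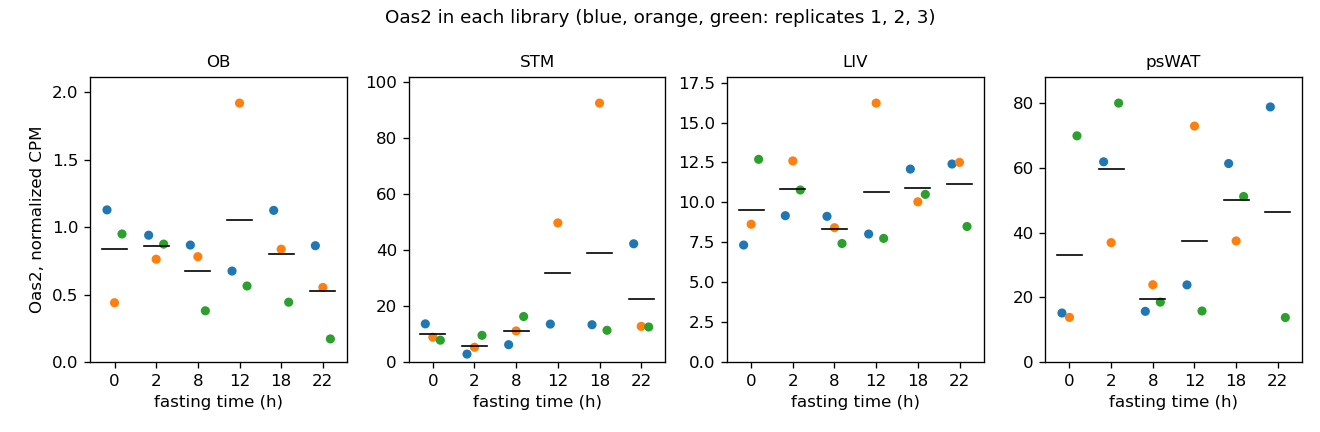
Oas2 (normalized CPM, vertical axis, with its own scale in each panel) in every retained library of OB, STM, LIV and psWAT by the length of the fast (horizontal axis). Each point is 1 library, with replicates 1, 2 and 3 in blue, orange and green, and black lines are group means. The orange point of 12 h is the highest of its group in all 4 panels.

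Oas3 in psWAT stood at 5.78, 9.74 and 33.2 at 0 h, 34.1, 22.1 and 32.9 at 2 h, 2.62, 9.29 and 7.38 at 8 h, 11.5, 40.04 and 8.96 at 12 h, 31.4, 13.1 and 25.4 at 18 h, 33.9 and 9.19 at 22 h (normalized CPM). In STM it stood at 4.21, 2.11 and 1.92 at 0 h, 0.756, 1.04 and 2.28 at 2 h, 2.00, 1.96 and 3.98 at 8 h, 2.22 and 10.4 at 12 h, 2.50, 18.2 and 2.13 at 18 h, 6.04, 3.76 and 1.28 at 22 h. In LIV it was 1.80, 1.14 and 1.83 at 0 h, 1.45, 3.42 and 2.37 at 2 h, 1.54, 0.627 and 1.33 at 8 h, 1.60, 2.26 and 1.04 at 12 h, 1.96, 1.95 and 0.668 at 18 h, 1.80, 3.64 and 2.18 at 22 h. The libraries that were high in Oas2 in STM were high in Oas3 as well, and mouse 2 of 12 h led its group in all these organs. The adjusted p of Oas3 was 0.00372, and it failed the filter on low counts in the other 6 organs. Usp18 in psWAT stood at 17.5, 31.1 and 50.7 at 0 h, 44.9, 29.5 and 49.2 at 2 h, 14.7, 22.3 and 17.2 at 8 h, 27.2, 63.6 and 17.9 at 12 h, 43.5, 44.7 and 55.7 at 18 h, 66.1 and 24.1 at 22 h. In STM it was 4.65, 3.49 and 7.38 at 0 h, 1.34, 2.09 and 4.57 at 2 h, 5.20, 5.63 and 8.17 at 8 h, 4.31 and 12.6 at 12 h, 0.374, 13.2 and 1.84 at 18 h, 6.94, 4.44 and 1.53 at 22 h. In OB it was 4.40, 1.58 and 2.07 at 0 h, 3.65, 3.05 and 2.89 at 2 h, 1.67, 1.07 and 1.97 at 8 h, 1.52, 6.89 and 2.63 at 12 h, 2.05, 2.60 and 1.89 at 18 h, 2.22, 2.15 and 1.43 at 22 h. Mouse 2 of 12 h again led its group in these organs, but other mice differed from organ to organ. Usp18 in BST was 1.65, 1.81 and 1.16 at 0 h, 1.497, 1.22 and 0.993 at 2 h, 0.896, 1.00 and 1.34 at 8 h, 1.11, 2.27 and 0.803 at 12 h, 1.40, 1.56 and 7.21 at 18 h, 2.70, 1.12 and 1.21 at 22 h, where 18 h replicate 3 stood far above the rest. Its adjusted p over mice was 0.0261.

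The psWAT libraries also differed in lymphocyte markers, as given above. Over the 17 psWAT libraries the T cell sum had an r of 0.626 with Oas2, 0.797 with Oas3 and 0.758 with Usp18, and the B cell sum 0.661, 0.730 and 0.686, all as log2(value + 1). Whether the differences between mice remain with these sums taken into account was not tested. Without the 6 libraries that stood apart, Oas2 and Oas3 were called (2 members), and Usp18 was at an adjusted p of 0.0750. With the 5 removed libraries put back, Oas2 stood at 0.0610. limma-voom called 6 members with all organs, and without single organs 15 (BRN), 8 (LIV), 6 (STM), 6 (iBAT), 5 (OB), 4 (BST), 4 (pgWAT), 2 (CBL) and 2 (psWAT). Oas2 passed with each organ left out in turn, at an adjusted p of at most 0.00627, whereas Oas3 did not without CBL (0.0664), BST (0.133), pgWAT (0.0789) and psWAT (0.282). Usp18 did not pass without OB (0.0842), CBL (0.0654), BST (0.0844), STM (0.117), iBAT (0.0761), pgWAT (0.161) and psWAT (0.190).

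A summary over all members gave the same mouse. For each library the deviation of log2(normalized CPM + 1) from the mean of its organ and time was averaged over the members that passed the filter. Averaged again over organs, mouse 2 of 12 h was highest (0.22, above 0 in 7 of 9 organs), followed by mouse 1 of 22 h (0.15, above 0 in 6 of 8). Mouse 3 of 12 h (-0.18, above 0 in 0 of 8) and mouse 3 of 22 h (-0.16, above 0 in 1 of 9) were lowest. Both extremes of 12 h take in psWAT, where replicate 3, the library nearest CBL, deviated by -0.77 and replicate 2 by 0.77. In its other organs mouse 3 of 12 h deviated by -0.18 to -0.0077, so its low average leans on psWAT. Averages without the 6 libraries that stood apart were not made. The fed mice averaged 0.03, -0.05 and 0.02. In STM the deviation of mouse 2 of 18 h was 0.86, the highest of any library, although this mouse was above 0 in 5 of 9 organs only. Deviations of 1 group sum to 0, and in groups of 2 they mirror each other, so these averages describe and do not test.

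**Figure D4:**
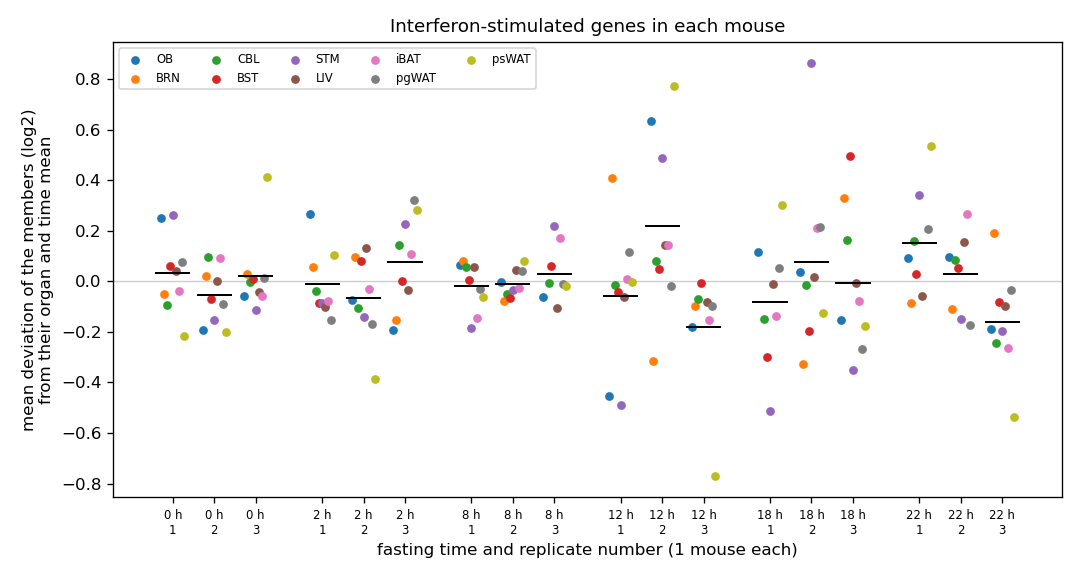
Mean deviation of the members from the mean of their organ and time (vertical axis, log2) for each mouse (horizontal axis, by hours of fasting and replicate number). Each point is 1 organ, by colour, and black lines are means over organs. For 12 h replicate 2 most points lie above 0, and for 12 h replicate 3 all lie below it.

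Within groups the members moved together in some organs. The mean correlation r between pairs of members, over deviations of 16 to 18 libraries per organ, was 0.535 in OB, 0.105 in BRN, 0.197 in CBL, 0.385 in BST, 0.449 in STM, 0.120 in LIV, 0.189 in iBAT, 0.217 in pgWAT and 0.531 in psWAT. For all genes it was at most 0.0204. Members of 1 library share its depth and lane, so r describes and is given no p. By the lane numbers in the labels CBL ran on 1 lane and BST on another, so their values are within a lane number. The labels do not name the run, so libraries with the same lane number may come from different runs. A single library carried much of r in BST, where it was 0.0721 without 18 h replicate 3. It was 0.316 in OB without 12 h replicate 2, 0.353 in STM without 18 h replicate 2, and 0.428 in psWAT without 12 h replicate 2. The other organs without their farthest library gave 0.0578 in BRN (12 h replicate 1), 0.115 in CBL (22 h replicate 3), 0.0904 in LIV (22 h replicate 2), 0.153 in iBAT (22 h replicate 3) and 0.135 in pgWAT (2 h replicate 3). In psWAT the lymphocyte sums differed between libraries, as given above. Its 12 h replicate 3, the library nearest CBL, had a mean deviation of -0.77. The part of both in r was not tested.

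In OB the library of 12 h replicate 2 also carried neutrophil markers: the 5 genes of that list, of which 3 were kept and S100a9 was the most abundant, summed to 2.28, 96.0 and 14.2 normalized CPM in the replicates of 12 h. In BST 18 h replicate 3 the same sum was 0.961. The part of such cells in the members' levels was not tested. The members most like the mean deviation of all members, which includes the gene itself, were Irf7 (mean r = 0.781 over the 9 organs) and Oasl2 (0.767). Irf7 in OB stood at 5.17, 3.79 and 3.71 at 0 h, 6.11, 3.53 and 2.89 at 2 h, 2.29, 2.77 and 1.71 at 8 h, 2.28, 16.2 and 3.51 at 12 h, 4.60, 3.35 and 2.22 at 18 h, 3.33, 4.22 and 2.18 at 22 h (normalized CPM). In STM it stood at 26.7, 15.5 and 19.5 at 0 h, 9.74, 7.52 and 14.5 at 2 h, 10.7, 16.4 and 19.7 at 8 h, 18.0 and 53.2 at 12 h, 16.6, 73.4 and 12.3 at 18 h, 56.8, 17.5 and 19.1 at 22 h. In both organs the high libraries of Irf7 are those already named for Oas2. Oasl2 in OB stood at 11.5, 7.31 and 10.8 at 0 h, 17.6, 7.72 and 7.00 at 2 h, 6.39, 7.75 and 6.47 at 8 h, 6.25, 31.9 and 9.09 at 12 h, 8.49, 9.12 and 8.22 at 18 h, 9.74, 7.75 and 4.46 at 22 h. In BST it was 6.80, 6.27 and 5.65 at 0 h, 6.46, 4.53 and 5.32 at 2 h, 3.67, 4.66 and 6.36 at 8 h, 5.62, 5.91 and 6.12 at 12 h, 6.67, 8.59 and 15.3 at 18 h, 5.82, 5.90 and 4.61 at 22 h, where 18 h replicate 3 was again the highest.

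Among 11580 genes outside the member list and the pathway list below, those near the top in likeness to the members' mean deviation, by the mean r over 9 organs, were H2-T23 (0.606), Psmb8 (0.546), Gm20559 (0.544), Rac2 (0.538), Mpeg1 (0.532), Tap1 (0.523), Apobec1 (0.496), Cd274 (0.488) and H2-Q4 (0.487). H2-T23 ranged from 0.290 in iBAT to 0.845 in OB. Tap1 had an r of 0.872 in psWAT and -0.508 in BRN.

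The wider interferon pathway was followed in a list of further genes: 18 ligands, 6 receptors, 14 signal proteins, 11 sensors and 74 other stimulated genes. The ligands had few counts. Of the 18 interferon genes, 11 had no count in any retained library, and all 18 together had 218 counts in the retained libraries. Ifng, interferon gamma, was the only one over 10 counts in any library, with 24 at most, and the only one to pass the filter on low counts in any organ, psWAT. Ifnb1 had 2 counts and Ifne 29.

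Receptors, signal proteins, sensors and other stimulated genes of the pathway were called at the late times in 6 organs. The 5 with the smallest adjusted p in each organ are named here, with log2 fold change ± SE and adjusted p. In iBAT 5 of 93 rose and 16 fell, where 20.9% of all genes were called, among them Ifi203 (-1.36 ± 0.29, 0.00612), Parp10 (-0.91 ± 0.20, 0.00676), Slfn5 (-1.22 ± 0.27, 0.00682), Rnf213 (-1.48 ± 0.32, 0.00696) and Znfx1 (-0.997 ± 0.23, 0.00817). In LIV 5 of 95 rose and 7 fell (10.6% of all genes), with Lgals9 (-0.70 ± 0.11, 0.000533), Oasl1 (-0.93 ± 0.22, 0.0114), Ifi207 (1.12 ± 0.27, 0.0128), Socs3 (0.99 ± 0.25, 0.0183) and Mavs (-0.48 ± 0.13, 0.0203). In STM 3 of 94 rose and 5 fell (15.3% of all genes), with Ifngr1 (-0.79 ± 0.21, 0.0212), Cxcl9 (-3.29 ± 0.89, 0.0222), Trim30d (1.17 ± 0.33, 0.0261), Ly6e (-0.65 ± 0.18, 0.0275) and Ifngr2 (-0.72 ± 0.21, 0.0287). In iBAT the falls outnumbered the rises, as they did over all genes (1888 lower and 1148 higher), and whether they rest on the 22 h libraries was not tested for these genes.

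In OB 2 of 87 pathway genes were called (1.95% of all genes), both lower: Helz2 (-0.79 ± 0.19, 0.0418) and Samd9l (-0.54 ± 0.14, 0.0455). In BRN 2 of 77 were called (11.3% of all genes), both lower: Tbk1 (-0.74 ± 0.19, 0.0217) and Rnf213 (-1.33 ± 0.35, 0.0248), while DESeq2 called 7. In CBL 1 of 74 was called (0.344% of all genes), Pnpt1 (-0.42 ± 0.09, 0.0344), which was lower. BST, pgWAT and psWAT had 0 called by edgeR (0.0596%, 0.00609% and 0.00% of all genes), with 5, 18 and 3 at an unadjusted p under 0.05. Over all genes, that unadjusted threshold was passed by 1654 of 16781 in BST, 3567 of 16408 in pgWAT and 867 of 16717 in psWAT. DESeq2 called 0, 7 and 0 pathway genes there, and its own filter had left 12 of the BST genes. In the other organs DESeq2 called 1 in OB, 1 in CBL, 12 in STM, 13 in LIV and 28 in iBAT. Between mice, 4 of 106 pathway genes differed (Oasl1, Irf3, Slfn1 and Ifi206), where 1.92% of all genes did, and between organs the late effect differed for 13 of 106, where 29.9% of all genes passed.

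The promoters of the members were searched for the core of the interferon response element, GAAA, any 2 bases and GAAA, on both strands. The sequences are those of RefSeq (GRCm38.p6), 250 bases before to 50 after the start of each gene. Promoters were found for 23 members, and 14 of these (60.9%) held the motif, against 3.99% of 27025 genes and 3.44% of all 32851 promoters of the same length. Of the pathway genes with a promoter, 46 (45.5%) held it. The members with it were Ifit1, Ifit3, Ifitm3, Isg15, Stat2, Oas1a, Oas3, Rsad2, Ddx58, Ifih1, Bst2, Gbp2, Gbp3 and Eif2ak2. No promoter entry was found for Oas2, Mx1, Mx2, Usp18, Dhx58, Rtp4, Zbp1, Parp9, Parp14 or Ifi27. Ifit2, Irf7, Irf9, Oasl2, Cmpk2, Xaf1, Ifi44, Trim25 and Herc6 had an entry without the motif. This says only that these letters are not in that window.

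For 8 of the 14, chosen because the comparisons above turn on most of them, 30 bases around the first match are shown, 5' to 3' on the strand of the gene, with capitals for the match or its reverse complement. They lie at chr19:34640775-34640804 (Ifit1), chr4:156200877-156200906 (Isg15), chr10:128270266-128270295 (Stat2), chr5:120907526-120907555 (Oas1a), chr5:120777715-120777744 (Oas3), chr4:40239804-40239833 (Ddx58), chr8:71537583-71537612 (Bst2) and chr17:78882535-78882564 (Eif2ak2). A match describes the letters and is no evidence that a factor binds there.
Ifit1: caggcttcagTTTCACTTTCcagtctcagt
Isg15: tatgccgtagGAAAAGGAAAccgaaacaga
Stat2: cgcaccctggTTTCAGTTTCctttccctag
Oas1a: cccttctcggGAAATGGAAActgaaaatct
Oas3: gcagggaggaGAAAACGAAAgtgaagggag
Ddx58: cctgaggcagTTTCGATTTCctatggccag
Bst2: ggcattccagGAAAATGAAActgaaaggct
Eif2ak2: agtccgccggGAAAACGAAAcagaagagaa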

How the data were processed

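Messenger RNA of 9 organs from 18 mice was sequenced in 162 libraries. Per the labels, the authors aligned reads to GRCm38.p5 with TopHat2 2.1.1 and counted them per gene with HTSeq 0.9.1, and the deposited values are raw counts. The 5 libraries that the study removed were left out, which leaves 157. These held 3045845 to 27801717 counts, with a median of 8735554, so that 3 counts correspond to 0.108 CPM in the deepest library and 0.985 CPM in the shallowest. The table was checked for identical columns, and each column was matched to its label. Since reads are counted where they map uniquely, near-identical copies (Ifit3 and Ifit3b, the Oas1 and Gbp families) are undercounted.

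Genes were kept in an organ where at least 3 libraries reached the CPM that equals 10 counts in its library of median size. Counts were scaled by TMM and tested in R 4.3.3 with edgeR 4.0.16 (quasi-likelihood, robust), per organ with the 6 times as groups, and over all organs with 1 dispersion estimated from the most abundant genes and each mouse as a block or as the tested term. P values were adjusted by Benjamini-Hochberg over all genes kept. RPKM used library sizes scaled by TMM over all organs and the summed exon length of the annotation. Alternatives were DESeq2 1.42.0 and limma-voom (limma 3.58.1), no filter on low counts, a fold threshold, lane as a covariate, a block for replicate numbers, single late times, all libraries, and each library of 0 h, 18 h and 22 h left out in turn. After the data were seen, fits without 6 libraries that resemble their organ least, without both 22 h libraries of iBAT, without 3 shallow BRN libraries, and limma-voom without each organ were added. Tests were run on simulated data first. Mean deviations used log2(normalized CPM + 1). Permutation p values used 100000 permutations. Python 3.11.15, numpy 2.4.6, pandas 2.3.3, scipy 1.17.1 and matplotlib 3.10.9 served for counts, correlations and plots. The members and the gene lists were chosen with earlier results of these data known. A few single genes of the lists and rankings are not reported here.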

Additional observations from a re-analysis of the deposited data

Results flagged for a closer look

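The late effect of fasting on Irf9 differed between organs (interaction of organ and time, edgeR, adjusted p = 0.00767), with log2 fold changes of 0.02 in OB, -0.77 in BRN, -0.29 in CBL, 0.18 in BST, 0.43 in STM, 0.25 in LIV, 0.09 in iBAT, 0.24 in pgWAT and 0.42 in psWAT. The late effect on Stat2 differed between organs as well (adjusted p = 0.0345), with log2 fold changes of -0.18 in OB, -0.34 in BRN, -0.26 in CBL, 0.16 in BST, 0.69 in STM, 0.23 in LIV, -0.51 in iBAT, -0.40 in pgWAT and 0.23 in psWAT. In this test 29.9% of all genes passed, and 2 of 33 members did. With the 5 removed libraries put back the adjusted p of Stat2 was 0.0508 with edgeR. With limma-voom and all organs it was 0.0243 for Stat2 and 0.0256 for Irf9. With limma-voom and 1 organ left out it was 0.0673 without OB, 0.155 without STM and 0.0510 without iBAT for Stat2, and 0.0563 without OB, 0.407 without BRN, 0.0562 without CBL, 0.0717 without LIV and 0.0827 without iBAT for Irf9. Lane follows fasting in STM, LIV, OB and pgWAT, and the retained 22 h libraries of iBAT ran on lanes that held no other retained iBAT library. Depth follows fasting in CBL, BST and pgWAT, and macrophage, plasmacytoid dendritic cell and red cell sums do in BRN. The mitochondrial share of every late library lay above every fed one in STM and pgWAT. It lay below in CBL and, apart from single libraries, in LIV and OB. The interaction was not fitted with lane, and the part of these measures was not tested.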

How the results depend on the processing

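Each value below is the count of called members or the quantity named, and the cause of each change was not tested. The share of all genes called in each of these settings is not given, so the counts are not set against it. For 18 h and 22 h against 0 h, BRN (1) gave 0 with an absolute log2 fold change over 1, 2 with DESeq2, 2 with no filter on low counts, 0 with lane as a covariate, 0 with all 18 libraries, 0 with 18 h alone and 0 without the 6 libraries that stood apart. With no filter CBL (0) gave 1 and BST (0) gave 1. LIV (2) gave 0 with the fold threshold, 0 with lane and 0 with 22 h alone. iBAT (2) gave 1 with the fold threshold, 5 with DESeq2, 4 with a block for replicate numbers, 0 with 18 h alone, 9 with 22 h alone and 0 without both 22 h libraries. pgWAT (0) gave 1 with DESeq2. With lane as a covariate the log2 fold change of Herc6 in OB turned from -0.39 to 0.0200.

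For any difference among the 6 times, OB (1) gave 17 with no filter and 0 with lane. DESeq2 gave 1 in BRN (0), 3 in BST (0), 3 in STM (0), 8 in LIV (4) and 1 in psWAT (0). With no filter CBL (1) gave 2, BST 9, STM 1 and LIV 8. CBL gave 2 with the block, LIV 2 with lane, and iBAT (6) 1 without the 6 libraries. In the test of organs, iBAT had 1 member lower (2) without them. Differences between mice (3) gave 6 with limma-voom. The interaction (2) gave 1 with the 5 removed libraries put back, 4 without the 6 libraries and 4 with limma-voom.

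With each library of 0 h, 18 h and 22 h left out in turn, the late counts ranged from 0 to 6 in BRN, 0 to 1 in BST, 0 to 2 in STM, 0 to 2 in LIV and 1 to 7 in iBAT. The members' median ranged from -0.63 to 0.23 in BRN, -0.25 to 0.14 in iBAT, -0.23 to 0.07 in OB and -0.05 to 0.59 in psWAT, and it kept its sign in the other organs, with 0.04 to 0.49 in STM. The counts for any difference ranged from 0 to 2 in OB, 0 to 3 in BRN, 0 to 1 in CBL, 0 to 4 in BST, 0 to 1 in STM, 2 to 6 in LIV and 1 to 11 in iBAT. With limma-voom and each organ left out in turn, 2 to 15 members differed between mice and 1 to 8 in the effect between organs, and the same with edgeR was not run. Lane as a covariate could not be fitted in iBAT and has a single level in CBL and BST. In OB, STM and LIV the lane term rests on 8 h, the only time with libraries on both lanes. The log2 fold change of the named members kept its sign with each library left out.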

Other observations

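In psWAT the members that differed between mice, and Ifi44, were compared with the summed lymphocyte markers over its 17 libraries, as log2(value + 1), in 8 relations adjusted together by Benjamini-Hochberg (permutation of libraries). Oas3 and the T cell sum gave r = 0.797 (adjusted p = 0.00044), rho = 0.855 (adjusted p = 0.00016), r = 0.698 without the 2 libraries farthest from the median marker sum and r = 0.582 among the 10 libraries of lane 5. Oas3 and the B cell sum gave r = 0.730 (adjusted p = 0.00112), rho = 0.806 (adjusted p = 0.000587), r = 0.629 without the 2 libraries farthest from the median marker sum and r = 0.677 among the 10 libraries of lane 5. Both relations held the same sign in lane 5, where Oas3 was high in the libraries with more lymphocyte markers. Usp18 and the T cell sum gave r = 0.758 (adjusted p = 0.00044), rho = 0.745 (adjusted p = 0.00174), r = 0.668 without the 2 libraries farthest from the median marker sum and r = 0.664 among the 10 libraries of lane 5. Usp18 and the B cell sum gave r = 0.686 (adjusted p = 0.00246), rho = 0.681 (adjusted p = 0.00504), r = 0.528 without the 2 libraries farthest from the median marker sum and r = 0.797 among the 10 libraries of lane 5. The Usp18 relation with B cells was the highest of the 8 within lane 5.

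Oas2 and the T cell sum gave r = 0.626 (adjusted p = 0.00597), rho = 0.679 (adjusted p = 0.00504), r = 0.575 without the 2 libraries farthest from the median marker sum and r = 0.5504 among the 10 libraries of lane 5. Oas2 and the B cell sum gave r = 0.661 (adjusted p = 0.00269), rho = 0.797 (adjusted p = 0.000587), r = 0.663 without the 2 libraries farthest from the median marker sum and r = 0.677 among the 10 libraries of lane 5. For Ifi44, the weakest of the genes compared, the T cell sum gave r = 0.400 (adjusted p = 0.114), rho = 0.422 (adjusted p = 0.0935), r = 0.218 without the 2 libraries farthest from the median marker sum and r = 0.522 among the 10 libraries of lane 5. Ifi44 and the B cell sum gave r = 0.561 (adjusted p = 0.0213), rho = 0.618 (adjusted p = 0.0110), r = 0.431 without the 2 libraries farthest from the median marker sum and r = 0.755 among the 10 libraries of lane 5. The time groups are part of these values, and whether the cells or their activity differ between libraries was not tested.

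Among the libraries that the study removed, psWAT 22 h replicate 2 had Irf7 at 243 CPM, against 47.3 to 179 in the retained libraries. Isg15 in this library was at 59.1 CPM, against 6.34 to 49.7 in the retained libraries. Oas2 was at 117.8 CPM, against 11.7 to 88.4 in the retained libraries. All of these lay past the retained range. In STM 12 h replicate 3 Oas2 was at 32.0 CPM, against 3.01 to 96.5 in the retained libraries, within the range. In iBAT 22 h replicate 1, with 2700482 counts, Oas2 had no count, against 1.16 to 9.51 CPM in the retained libraries. Isg15 there was at 3.70 CPM, against 1.32 to 9.82 in the retained libraries, and Irf7 at 14.4 CPM, against 6.95 to 23.4, so this 22 h library did not share the high Isg15 of the other 22 h libraries of iBAT. In BRN 8 h replicate 3 and BRN 18 h replicate 1, with 130701 and 279848 counts, Irf7, Isg15 and Oas2 had no count.

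Limits. The members were chosen by name, with earlier results known. Groups hold 2 or 3 mice, and lane follows the length of the fast in STM, LIV, OB and pgWAT. Lane is the number in the labels, which do not name the run, so an equal number need not be the same lane. The retained 22 h libraries of iBAT ran on lanes 1 and 3, which held no other retained iBAT library. The fed libraries of CBL, BST and pgWAT are deeper than all late ones. No infection of the animals is described, no test for infection is reported, and no protein or interferon level was measured. Bulk RNA does not tell cell numbers from activity. Calls near the threshold, such as Irf7 and Zbp1 in LIV and Ifi27 in BRN, were lost without single libraries. The 22 h group of iBAT holds 2 libraries that differ from the rest in several measures.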
